A study of Mus musculus with 6 samples.

Results

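Connective tissue fibroblast genes are described here by 10 genes: Pdgfra, Dcn, Lum, Dpt, Pi16, Mfap5, Clec3b, Fbn1, Igfbp6, and Myoc. The members were chosen on values of these same arrays, with the differences between genotypes in view, and were then found on the array by gene name among the probes that are not controls. They are 10 of the 37325 genes on the array and are read by 14 probes, since Pdgfra and Fbn1 have 3 probes each and the other members 1. The differences of the members between genotypes are therefore given as a description, with no test. RNA was measured from the left kidney of male C57BL/6J mice at an age of 8 weeks after 20 h without food, which both groups shared. The groups are 3 wild-type (WT) mice and 3 mice lacking Selenbp1, the gene of selenium-binding protein 1 (Selenbp1-KO), with 1 mouse on each one-color Agilent array. The C57BL/6J mice were obtained from a breeder and the knockout line was made earlier, and neither the labels nor the methods say that WT and Selenbp1-KO mice were littermates. The methods do not say whether the capsule or the fat and vessels at the hilum were trimmed off, and whole-kidney RNA holds what was left on.

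Fibroblasts make the collagen, proteoglycans, and elastic fibers between cells. In the kidney they lie in the interstitium between tubules, and another population lies in the adventitia, the outer sheath of arteries and veins, and in the capsule and the tissue around the renal pelvis. Pdgfra is carried by fibroblasts in general, whereas Pi16, Dpt, and Mfap5 are known as markers of the adventitial and fascial populations.

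The Selenbp1 probe separated the genotypes: WT replicates 2 to 4 read 7.07, 7.02, and 7.02, and Selenbp1-KO replicates 1 to 3 read 4.13, 3.98, and 4.10. Values of single arrays are given in this order of replicates throughout. These and all levels below are log2 signals relative to the 75th percentile of the same array, so 0 is that percentile and a step of 1 is a doubling. The percentile itself lay between 477 and 751 intensity units. The share of spots well above background was 53.4% to 55.5% on the WT arrays and 51.8% to 53.1% on the Selenbp1-KO arrays, so every Selenbp1-KO array was lower. The probe of a gene with several probes is the brightest over the 6 arrays. Levels of different probes are not compared with each other, because probes differ in how strongly they bind. The 3 arrays of a genotype limit the precision, and 3 arrays against 3 allow no exact permutation p below 0.10. Across 37028 genes tested, the median difference, KO minus WT, was 0.13, and 0.00 with quantile normalization.

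All 10 members had a higher mean in Selenbp1-KO than in WT kidneys, with a median difference of 0.97 and a range from 0.07 for Pdgfra to 2.45 for Myoc. For 8 of the 10, the lowest Selenbp1-KO array exceeded the highest WT array, where 10.2% of all genes show this. For 8 members the unadjusted p of limma was under 0.05 and the gene higher in Selenbp1-KO kidneys, where 6.87% of all genes tested met this, and no member was lower, against 1.13% of all genes. These counts describe how the members were chosen and support nothing. All 10 members passed the detection filter, and 8 were well above background on all 6 arrays, the exceptions being Clec3b and Myoc. In bulk RNA, more fibroblasts in the sample and more of these RNAs in each fibroblast cannot be told apart.

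**Figure D1:**
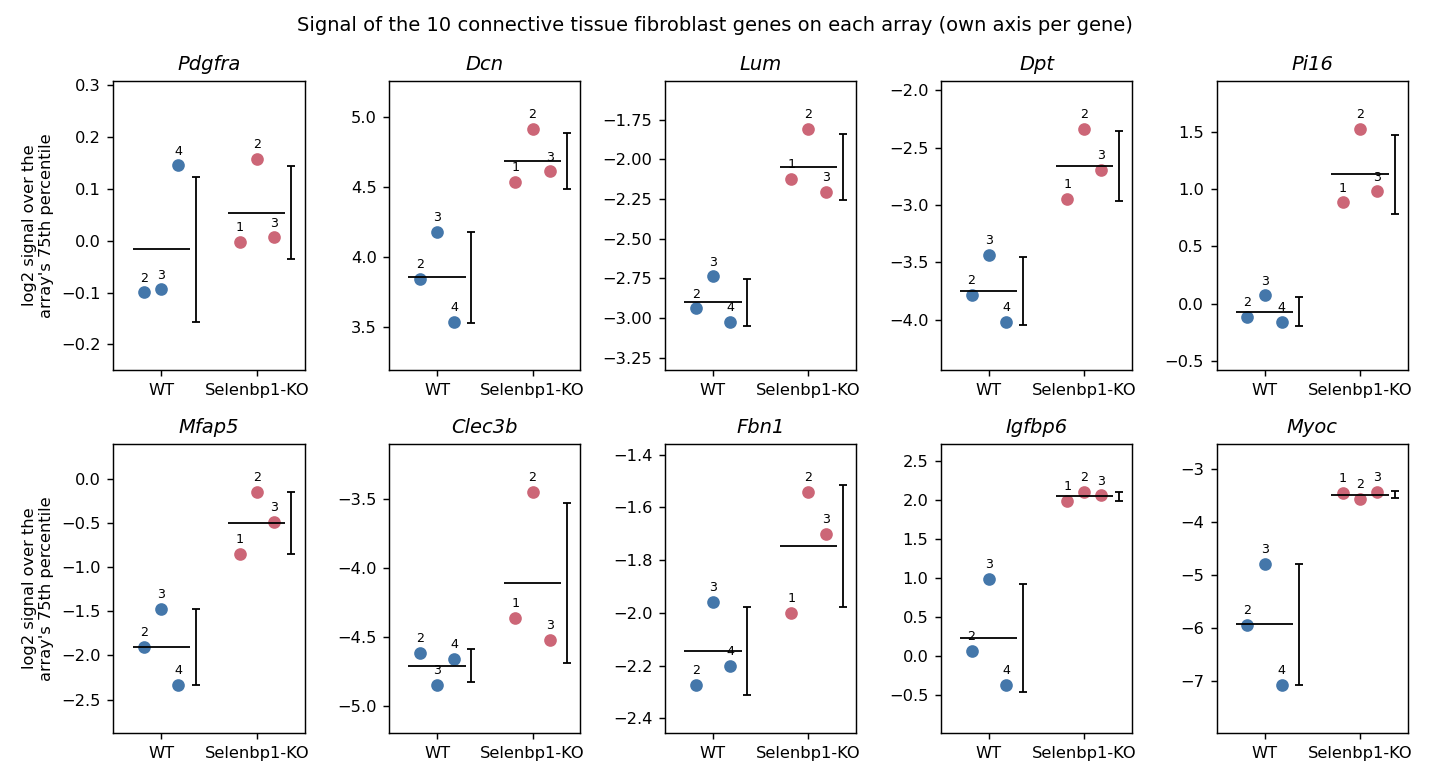
Signal of each member on each array, on the y axis as log2 over the 75th percentile of the array, with WT arrays in blue, Selenbp1-KO arrays in red, and replicate numbers beside the points. Lines are group means and bars the SD of 3 arrays. Igfbp6 and Myoc are nearly level across the Selenbp1-KO arrays and spread over the WT arrays, and Pdgfra overlaps between the groups.

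The sequence of the Dcn probe is shown, as decorin is a proteoglycan typical of fibroblasts. It is printed 5′ to 3′, 60 bases at chr10:96980233-96980292 of build mm9, on the plus strand. The capitals mark a TAA stop codon in the frame that starts at its first base, and the other frames hold no stop codon.
Dcn probe: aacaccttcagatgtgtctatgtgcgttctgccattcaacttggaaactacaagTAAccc

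Pdgfra (NM_011058, chr5:75593888-75593947 of mm9) encodes a receptor tyrosine kinase for platelet-derived growth factor that most fibroblasts carry. The WT arrays read −0.10, −0.09, and 0.15 and the Selenbp1-KO arrays −0.00, 0.16, and 0.01. The groups overlapped, with WT replicate 4 nearly as high as the highest Selenbp1-KO array. The difference was 0.07 ± 0.12 (SE of the limma fit, n = 3 per genotype), smaller than its error. The second probe, AK145097, differed by −0.19 and overlapped as well, and that of AK139094 was not well above background on any array. The sign of Pdgfra turned, to −0.09, when only arrays of the same slide row were compared. The receptor that marks fibroblasts most broadly was thus the member with the smallest difference.

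Of the proteoglycans, decorin and lumican bind collagen fibrils and set their width and spacing. Dcn (NM_007833) read 3.84, 4.18, and 3.53 in WT and 4.54, 4.91, and 4.61 in Selenbp1-KO kidneys. Its difference was 0.83 ± 0.20, or 1.78-fold, and the groups did not overlap. Lum (NM_008524, chr10:97035210-97035269), the neighbor of Dcn on chromosome 10, had −2.94, −2.74, and −3.02 in WT and −2.12, −1.81, and −2.21 in Selenbp1-KO kidneys. The Selenbp1-KO arrays all lay above the WT arrays, by 0.85 ± 0.15 on average, or 1.81-fold. Dpt (NM_019759, chr1:166753703-166753762) encodes dermatopontin, a small matrix protein that binds decorin. Its signal was −3.78, −3.43, and −4.02 in WT and −2.95, −2.34, and −2.70 in Selenbp1-KO kidneys. The groups were apart, with a difference of 1.08 ± 0.22, or 2.12-fold. In all 3 genes WT replicate 3 was the highest WT array and Selenbp1-KO replicate 2 the highest Selenbp1-KO array.

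Fbn1 and Mfap5 encode parts of the microfibril, the scaffold on which elastin is laid down. Fbn1 (NM_007993, chr2:125126583-125126642, minus strand) encodes fibrillin-1, the backbone of the microfibril. Its signal was −2.27, −1.96, and −2.20 in WT and −2.00, −1.54, and −1.70 in Selenbp1-KO kidneys, so that Selenbp1-KO replicate 1 lay just under WT replicate 3. The difference was 0.40 ± 0.16, or 1.32-fold. Another probe of the same transcript differed by 0.38 without overlap, and that of AK080935 was not well above background on any array. Mfap5 (NM_015776, chr6:122478591-122478650) encodes a glycoprotein that sits on fibrillin microfibrils. It had −1.90, −1.47, and −2.33 in WT and −0.85, −0.15, and −0.49 in Selenbp1-KO kidneys. The groups were well apart, by 1.40 ± 0.27, or 2.65-fold.

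The other members encode proteins that are secreted or held at the cell surface. Pi16 (NM_023734, chr17:29465784-29465843), peptidase inhibitor 16, marks a fibroblast population around vessels. Its signal was −0.12, 0.07, and −0.16 in WT and 0.88, 1.52, and 0.98 in Selenbp1-KO kidneys. The WT arrays lay close together and all Selenbp1-KO arrays were above them, by 1.20 ± 0.19, or 2.30-fold. Clec3b (NM_011606, chr9:123066320-123066379) encodes tetranectin, a plasminogen-binding lectin. It had −4.62, −4.85, and −4.66 in WT, where 2 of 3 arrays were well above background, and −4.36, −3.45, and −4.52 in Selenbp1-KO kidneys, where all were. The groups did not overlap, but only Selenbp1-KO replicate 2 stood clearly apart, and the difference of 0.60 ± 0.29 became 0.27 without it.

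Igfbp6 (NM_008344, chr15:101979852-101979911) encodes a binding protein that prefers insulin-like growth factor 2. Its signal was 0.07, 0.99, and −0.37 in WT and 1.98, 2.10, and 2.06 in Selenbp1-KO kidneys. The Selenbp1-KO arrays were nearly equal and all above WT replicate 3, the highest WT array. The difference was 1.82 ± 0.34, or 3.53-fold. Myoc (NM_010865) encodes myocilin, a secreted glycoprotein best known from the outflow tissue of the eye. It had −5.93, −4.79, and −7.07 in WT, where only replicate 3 was well above background, and −3.45, −3.56, and −3.44 in Selenbp1-KO kidneys, where all 3 arrays were. The fitted difference was 2.45 ± 0.54, or 5.45-fold, and rests on dim WT spots. With each WT array at the higher of its own signal and the lowest signal called well above background, the fold was 2.84, under the 3.53 of Igfbp6. With normexp background correction (a model of signal plus noise) the log2 difference was 0.75, below the 1.68 of Igfbp6 in the same fit. The same correction took Lum to 0.57 and Dpt to 0.66.

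**Figure D2:**
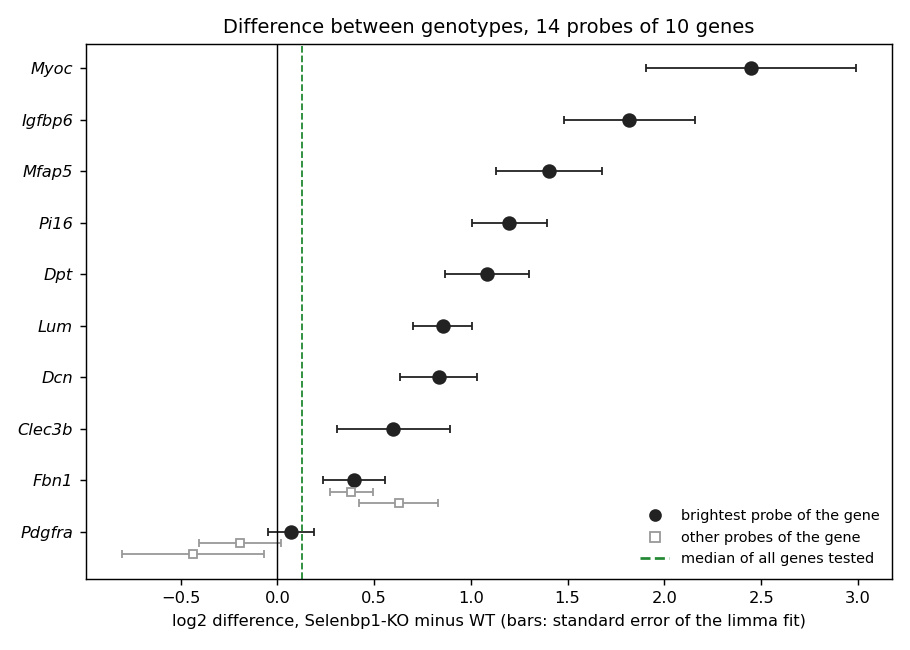
Difference in log2 signal, Selenbp1-KO minus WT, on the x axis for the 14 probes of the 10 members, with bars for the standard error of the limma fit (n = 3 arrays per genotype). Filled points are the brightest probe of a gene, open squares its other probes, and the dashed line is the median of all genes tested, 0.13. Pdgfra is the only member whose brightest probe lies left of that line.

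Many of the members, but not all pairs, varied together from mouse to mouse also within a genotype. Averaged over the 10 members, the WT arrays read −1.78, −1.41, and −2.02 and the Selenbp1-KO arrays −0.83, −0.42, and −0.74. WT replicate 4 was the lowest WT array for 7 members, and Selenbp1-KO replicate 2 the highest Selenbp1-KO array for 9. Over the 45 pairs of members, the Pearson correlation across the 6 arrays had a median of 0.90. Once the mean of each genotype was taken out the median was 0.69, and single pairs ran from −0.75 to 0.99. Pdgfra followed the other 9 members less, with a median of 0.27. These correlations rest on 6 arrays that share the genotype difference and the scaling of each array, and are a description. Taken singly against the mean of the WT arrays, Selenbp1-KO replicates 1, 2, and 3 gave a median member difference of 0.79, 1.33, and 0.90. Of the 10 members, 8, 10, and 9 were above all 3 WT arrays on these arrays.

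The 10 genes outside the members with the most similar pattern were named by their Pearson correlation with the mean of the members over the 6 arrays, among 18353 genes well above background on all arrays. Their r was between 0.985 and 0.997, and 103 of the 18353 genes had an r above 0.95. They were Fam65c, Ubtd1, Serpinf1, Gm14964, 2310075K07Rik, Urm1, Klk1b27, Fxyd6, and a pair of transcripts with no gene name in the table used. Serpinf1, described below, differed most between genotypes, by 1.52. The others differed by 0.20, as for Urm1, to 0.57, as for Fam65c and for Fxyd6, a regulator of the sodium pump.

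The upstream sequence of 6 members is in the RefSeq promoter table (assembly GRCm38.p6), and Dcn, Lum, Mfap5, and Clec3b have no entry there. The 250 bases before the start of Myoc (chr1:162638900-162639149, plus strand), Igfbp6 (chr15:102143936-102144185, plus strand), and Pi16 (chr17:29318632-29318881, plus strand) are printed, as examples among the secreted and surface proteins. They run 5′ to 3′ toward the transcription start, and capitals mark matches to the motifs searched for on both strands, the TATA box TATAAA, the CCAAT box CCAAT, the GC box GGGCGG, and the AP-1 site TGANTCA.
Myoc promoter: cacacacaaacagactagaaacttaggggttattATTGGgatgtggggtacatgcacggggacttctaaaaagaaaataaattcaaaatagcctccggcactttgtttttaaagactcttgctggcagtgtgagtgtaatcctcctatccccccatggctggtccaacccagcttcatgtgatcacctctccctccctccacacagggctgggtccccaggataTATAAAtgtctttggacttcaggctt
Igfbp6 promoter: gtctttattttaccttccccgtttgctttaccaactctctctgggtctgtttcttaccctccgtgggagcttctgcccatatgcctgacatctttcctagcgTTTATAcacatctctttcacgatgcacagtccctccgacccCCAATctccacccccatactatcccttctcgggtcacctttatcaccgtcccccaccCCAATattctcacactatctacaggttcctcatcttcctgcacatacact
Pi16 promoter: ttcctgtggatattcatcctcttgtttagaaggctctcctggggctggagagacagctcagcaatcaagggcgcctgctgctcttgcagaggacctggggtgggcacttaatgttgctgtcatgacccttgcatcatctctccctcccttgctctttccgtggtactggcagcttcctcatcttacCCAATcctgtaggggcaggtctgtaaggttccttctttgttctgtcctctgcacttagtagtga

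The Myoc window holds TATAAA at −26 from the start and CCAAT on the opposite strand at −216. The Igfbp6 window holds TATAAA on the opposite strand at −148 and CCAAT at −107 and −50, and that of Pi16 holds CCAAT at −64. Fbn1 has GGGCGG at −185, and the windows of Dpt and Pdgfra hold none of the 4 motifs. TATAAA was in 2 of the 6 member windows and in 12.4% of all 32851 promoter windows. CCAAT was in 3 of 6 and in 33.8% of all, GGGCGG in 1 of 6 and in 32.7%, and TGANTCA in 0 of 6 and in 6.75%. A match is only a match of letters, and none of these counts is a statement about the factors that bind them.

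Other connective tissue genes were grouped, with earlier results of these data known, into 6 lists that hold none of the members, 100 genes in all. At the limma threshold used above, 22 of them were higher in the knockout and 0 lower (6.87% and 1.13% of all genes), 88 had a higher mean, and their median difference was 0.28, against 0.13 for all genes. Of all genes, 68.4% had a higher mean in this fit and 52.0% with quantile normalization, which is the background for such counts in the lists. None passed Benjamini–Hochberg adjustment over all probes, their lowest adjusted p from limma being 0.279. The count rests in part on Selenbp1-KO replicate 2: without that array 14 genes passed, 12 of them among the 22. With normexp background correction 44 passed, 43 of them higher and 1 lower. With limma's trend and robust options 41 passed, all higher. In each case all 22 were among them. With slide row as a block 20 passed as higher (2.44% of all genes did), 12 of them among the 22, and 78 had a higher mean. The shares of the single lists below are to be read against the share of all genes called higher in the same fit. That share was 6.87% in the fit used, 11.3% with normexp correction, and 5.24% with quantile normalization. With median scaling 9272 of 37028 genes were called higher, against 2544 in the fit used. List counts with median scaling or normexp correction, the 44 included, therefore stand against a larger background. Since the lists were chosen with earlier results known, all of their counts and shares are a description.

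The highest median of the 6 lists in this fit was 0.41, that of the 40 other adventitial and connective tissue fibroblast genes. Of these, 12 (30.0%) were higher. With quantile normalization their median was 0.346, just under the 0.352 of the collagens. Serpinf1, the gene of the secreted antiangiogenic factor PEDF, read −1.70, −1.06, and −2.15 in WT and −0.33, 0.14, and −0.15 in Selenbp1-KO kidneys. The groups did not overlap and differed by 1.52 ± 0.29. Fap, a surface protease of activated fibroblasts, was higher by 1.32 ± 0.34, with 2 of 3 WT arrays well above background. Twist2, a transcription factor of mesenchymal cells, was higher by 1.13 ± 0.35, with 1 of 3 WT arrays well above background. Cilp, a cartilage and fibroblast matrix protein, had 0 of 3 WT arrays and 1 of 3 Selenbp1-KO arrays well above background. Its means were −6.25 in WT and −4.48 in Selenbp1-KO kidneys. With each WT array at the higher of its own signal and the lowest signal called well above background, the fold was 1.56. That is no firm minimum, since the Selenbp1-KO mean rests on dim spots as well. With normexp background correction the log2 differences of Fap, Twist2, and Cilp were 0.56, 0.48, and 0.50, the last below that fold.

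Of the 13 fibrillar and associated collagens, 5 (38.5%) were higher and all 13 had a higher mean, with a median difference of 0.36. With slide row as a block 2 were higher and 11 had a higher mean, with a median of 0.27. Col3a1, a fibrillar collagen of vessels and loose connective tissue, had −0.76, −0.46, and −0.52 in WT and 0.09, 0.21, and 0.16 in Selenbp1-KO kidneys. It differed by 0.73 ± 0.12 with no overlap. Col12a1, which coats collagen I fibrils, was higher by 0.76 ± 0.23, Col5a3 by 0.60 ± 0.18, and Col1a1, the main collagen of scar and bone, by 0.44 ± 0.17. Of the 10 other small leucine-rich proteoglycans, the family of Dcn and Lum, 2 (20.0%) were higher, Ecm2 by 0.59 ± 0.17 and Ogn by 0.36 ± 0.13, with a median of 0.32. Of the 20 other microfibril and elastic fiber genes, the group of Fbn1 and Mfap5, 2 (10%, near the share of all genes) were higher, the elastin cross-linking enzyme Loxl1 by 0.44 ± 0.13 and Mfap2 by 0.43 ± 0.15, with a median of 0.25.

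The signaling partners of 2 members showed smaller median differences. Of the 6 other PDGF ligands and receptors, the family around Pdgfra, 0 passed the threshold in either direction by limma at an unadjusted p under 0.05, and 3 had a higher and 3 a lower mean. With normexp correction 2 were higher, and 1 with median scaling and with slide row as a block. The greatest differences there were 0.54 ± 0.23 for Pdgfrl and 0.33 ± 0.15 for Pdgfrb, the receptor of pericytes, both with overlapping groups. Of the 11 genes of the insulin-like growth factor axis around Igfbp6, 1 (9.09%) was higher, Igfbp3, by 0.29 ± 0.10. In all, 7 had a higher and 4 a lower mean. Larger differences that did not pass included 0.49 ± 0.31 for Igfbp2, with overlap, and −0.47 ± 0.23 for Igfbp1. All Selenbp1-KO arrays of Igfbp1 lay below the WT arrays. With normexp correction 1 gene of this list passed as higher and 1 as lower. With slide row as a block none passed, and Igfbp3 differed by 0.18. The median was 0.04 in both lists, below the 0.13 of all genes in this fit. With quantile normalization it was 0.03 in both lists, above the 0.00 of all genes. With slide row as a block the medians of these lists turned to −0.03 and −0.00.

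**Figure D3:**
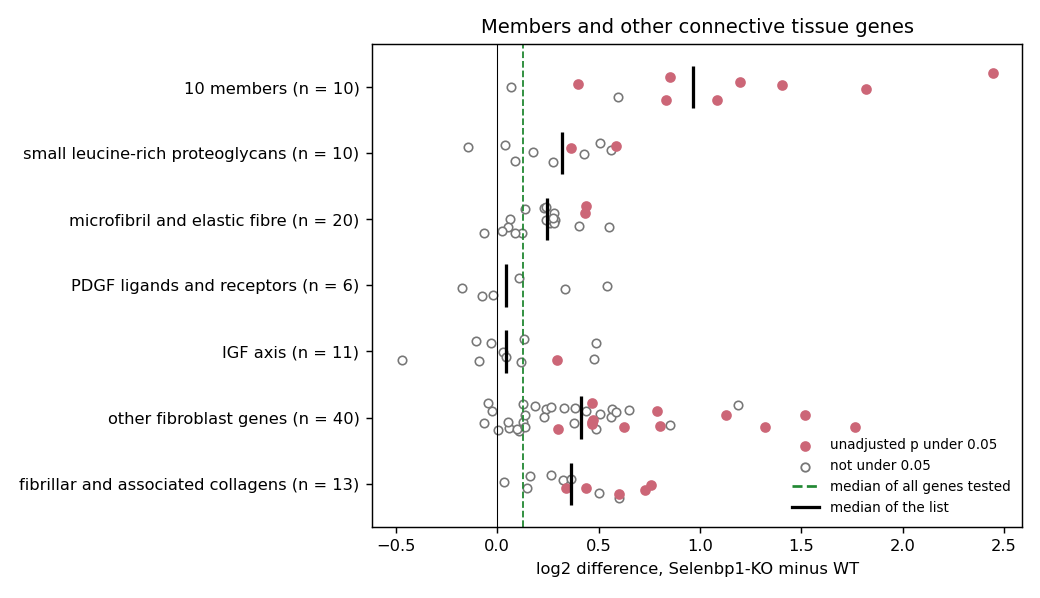
Difference in log2 signal, Selenbp1-KO minus WT, on the x axis for each gene of the members and of the 6 lists of other connective tissue genes, with filled points for an unadjusted p under 0.05 by limma. Thick lines are list medians and the dashed line the median of all genes. The 6 lists were chosen with earlier results of these data known. The medians run from 0.04 in the PDGF and insulin-like growth factor lists to 0.41 in the other fibroblast genes and 0.97 in the members, which were chosen on this difference.

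Markers of other tissues that adjoin the kidney or its vessels, also listed with earlier results known, were read in the same libraries. White fat markers moved with the members between some arrays but not all. All 7 had a higher mean in Selenbp1-KO kidneys, none passed the threshold in this fit (1 did with normexp correction), and their median difference was 0.78. With slide row as a block, which compares with WT replicate 4 alone, that median was 1.91, above the 1.22 of the members in the same fit. Their summed level, in multiples of the 75th percentile, came to 47.5, 72.9, and 26.6 on the WT arrays and to 88.7, 174, and 39.0 on the Selenbp1-KO arrays. Selenbp1-KO replicate 3 thus lay within the WT range for fat, whereas the summed level of the members there was 33.1, above the 23.0 of the highest WT array. Across the WT arrays, both lists were highest in replicate 3 and lowest in replicate 4. Retn, the adipocyte hormone resistin, differed by 1.60 ± 0.71 and Adipoq, adiponectin, by 1.19 ± 0.72, each with overlapping groups.

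Of 6 perivascular macrophage markers, 3 passed the threshold and were higher, against 6.87% of all genes, Pf4 by 1.06 ± 0.28, the scavenger receptor Cd163 by 1.01 ± 0.33, and the mannose receptor Mrc1 by 0.70 ± 0.17, with a median of 0.61 and Timd4 not well above background on any array. With quantile normalization, as with the authors' values, 2 markers passed, and with normexp correction the median was 0.39 and Cd163 differed by 0.47. For 4 of the 6 (66.7%), Pf4, Cd163, Mrc1, and Timd4, every Selenbp1-KO array exceeded every WT array, as for 10.2% of all genes. Their summed level was 5.07 to 5.50 in WT and 4.99 to 8.14 in Selenbp1-KO kidneys, so the sum overlapped. The bright signals of Cbr2 and Folr2, whose groups overlapped, weigh most in that sum. The 6 urothelium markers, of the lining of the renal pelvis, had a median of 0.47 with none past the threshold, and summed to 16.7 to 17.4 in WT and 15.7 to 38.8 in Selenbp1-KO kidneys. The highest sum was again that of Selenbp1-KO replicate 2, and the uroplakins Upk3a and Upk2 both differed by 0.64, with errors of 0.34 and 0.47. Of 7 mesothelium markers, cells that cover the organ surface, all had a higher mean, with a median of 0.39 and a summed level of 8.52 to 9.30 in WT and 8.36 to 13.7 in Selenbp1-KO kidneys. Lrrn4 alone passed the threshold there, and it and Bnc1 were not well above background on any array. The median of the list, 0.39, is the value of Bnc1. With quantile normalization, in the authors' table, and with slide row as a block none of the 7 passed, and with median scaling 3 did. The part of fat, macrophages, urothelium, and mesothelium in the members' difference was not tested. On Selenbp1-KO replicate 3 the sums of these 4 lists were within or below the WT range, and 9 of the 10 members, which were chosen on this difference, were above every WT array. The mean log2 signal of the macrophage markers on that array was 0.46 above the WT mean, although their sum was below the WT range.

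The remaining marker lists differed less. The 8 mural cell and pericyte markers had a median of −0.04, with 0 past the threshold by limma at an unadjusted p under 0.05 (2 with normexp correction), and Des, the pericyte filament desmin, differed by 0.31 ± 0.13. The 8 kidney epithelium markers also had a median of −0.04 and none past the threshold in any of the scalings tried, with Aqp2 at −0.26 ± 0.23 (0.04 with slide row as a block) and Slc12a1 at −0.13 ± 0.13. Their summed level was 437 to 457 in WT and 445 to 469 in Selenbp1-KO kidneys, and all 8 were well above background on every array. With quantile normalization none of the 8 had a higher mean, and their median was −0.09. None of the markers of Schwann cells and nerve (median −0.13, with Cdh19 at 0.37), lymphatic endothelium (0.11, with Lyve1 at 0.89 and Pdpn at 0.26), skeletal muscle (0.31, with Tnni2 at 0.44 and Ckm at 0.41), or adrenal cortex (0.32, with Cyp11a1 at 0.51 and Cyp11b2 at 0.38) passed the threshold in this fit. Of these, Cdh19, Lyve1, Ckm, and the adrenal genes Cyp11b1, Cyp11b2, Cyp11a1, and Mc2r were not well above background on any array. The median of the nerve list was 0.09 with normexp correction. With quantile normalization Cyp11b2 was at −0.01, Ckm at 0.03, and Cdh19 at 0.05, whereas Cyp11a1 was at 0.32 and Lyve1 at 0.83. The adrenal median was 0.02 with quantile normalization and in the authors' table and 0.06 with slide row as a block, and 2 adrenal genes passed with median scaling. The skeletal muscle median was 0.09 with slide row as a block.

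**Figure D4:**
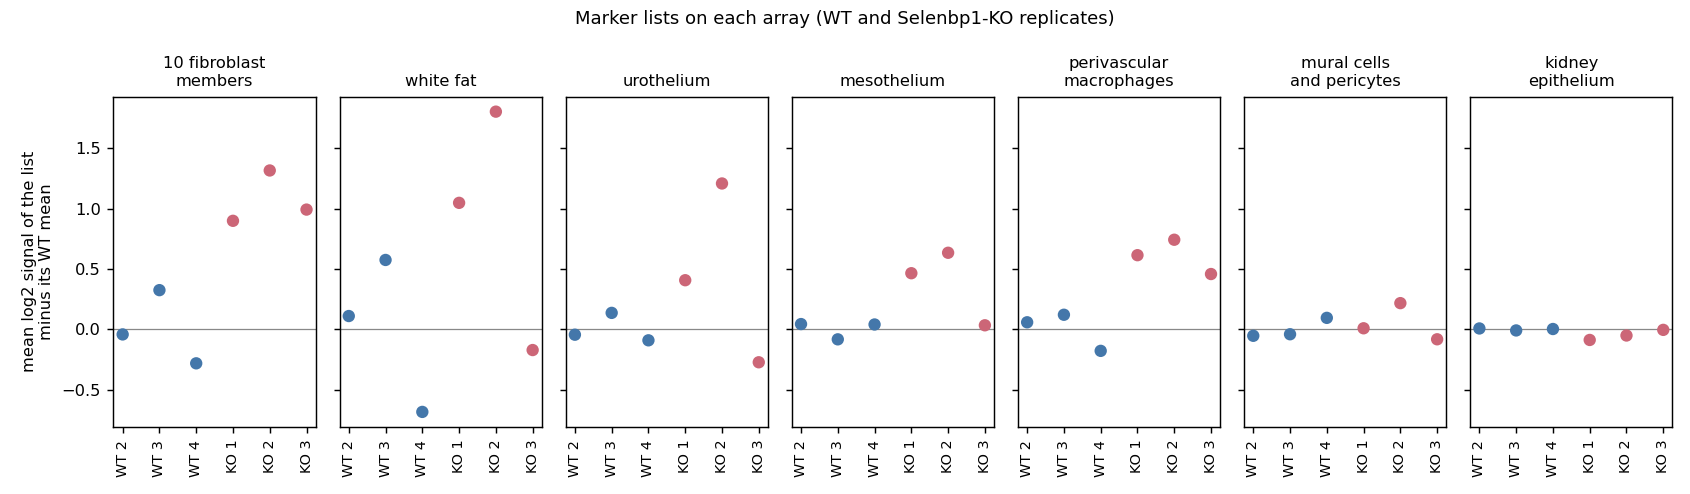
Mean log2 signal of the 10 members and of 6 marker lists on each array, on the y axis, minus the mean of the WT arrays for the same list, with WT arrays in blue and Selenbp1-KO arrays in red. The members are at 0.90, 1.32, and 0.99 in Selenbp1-KO replicates 1, 2, and 3, whereas white fat is at 1.05, 1.81, and −0.17 and kidney epithelium stays within 0.09 of 0.

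The arrays lie in 2 rows of a slide, WT replicates 2 and 3 in row 1 and WT replicate 4 with all Selenbp1-KO arrays in row 2. Row and genotype therefore overlap in part. Compared within row 2 alone, Selenbp1-KO arrays against WT replicate 4, the median difference of the members was 1.22. The differences with slide row as a block are this same comparison, and so rest on 1 WT mouse. Set against WT replicate 2 or WT replicate 3 alone, the mean of the Selenbp1-KO arrays was higher by a median of 1.01 or 0.75.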

How the data were processed

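Kidney RNA of 3 WT and 3 Selenbp1-KO mice was hybridized to 6 arrays. The authors deposited the Feature Extraction output of each array (version 9.5.1.1 per the labels, 10.7.1.1 per the file headers), whose processed intensity is background-subtracted and not scaled between arrays, and a table of 1 intensity per probe whose 6 columns have the same quartiles. The deposited detection p-value of a spot tests it against its background. The labels and the methods name different RNA extraction kits. The samples were grouped by the genotype in the labels.

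Of 62976 spots, 59305 were not controls and belonged to 56605 probes. Spots marked as outliers were left out, spots of a probe were averaged, and log2 of the processed intensity was taken minus log2 of the array's 75th percentile. The 56097 probes detected on 1 or more arrays (p under 0.05) entered a two-sided limma fit (lmFit and eBayes, limma version 3.58.1, R version 4.3.3). Following the methods, a probe was called at an unadjusted p under 0.05, with Benjamini–Hochberg adjustment over all probes. The code was tested on simulated data. The brightest probe over the 6 arrays stands for a gene. RefSeq (GRCm38.p6) named 32994 probes by accession and the others keep the file's name. Probe coordinates on mm9 were taken from the files.

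The members and lists were chosen with earlier results of these data known. The lists are small leucine-rich proteoglycans, microfibril and elastic fiber, PDGF ligands and receptors, insulin-like growth factor axis, collagens, and other fibroblast genes, and the markers of 10 other cell types. Named are all members, in each list at most 4 genes past the threshold with the largest difference (2 where none passed), and the 10 genes most correlated with the members' mean. A few other list genes, such as Igfbp1 and Igfbp2, are named beside these. Of 8 mesothelium markers, Muc16 has no tested probe by that name. The alternatives were normexp (offset 50), quantile, and median scaling, the authors' table, a filter on signal well above background, no filter, outlier spots kept, limma trend and robust (statmod version 1.5.0), slide row or replicate number as a block, each array left out, and the mean of all probes. Each Selenbp1-KO array alone, and WT replicate 4 alone as the control, were added after seeing the data. WT replicate 4 alone gives the same differences as slide row as a block. No sample was left out. A gene that this rule names and a probe sequence are not reported here.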

Additional observations from a re-analysis of the deposited data

How the results depend on the processing

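Of the 10 members, 9 had a higher mean in Selenbp1-KO kidneys in all 16 alternative fits, and Pdgfra in 15 of them, with −0.09 when slide row was a block. Apart from these fits, Pdgfra was at −0.19 as the mean of its 3 probes. The median difference of the members was 0.97 in the fit used and 0.71 with normexp, 0.96 with quantile normalization, and 1.22 with the slide row as a block. It was 0.83 to 1.12 with each array left out and 1.33 with Selenbp1-KO replicate 2 alone.

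Over all probes, 4479 passed an unadjusted p under 0.05. The count was 14616 with median scaling, 7536 with trend and robust options, 2841 with the filter on signal well above background, and 2024 to 17585 with each array left out (2024 without WT replicate 2, 2627 without WT replicate 3, 17585 without WT replicate 4, and 2808 if Selenbp1-KO replicate 2 was dropped). The share of these probes that was higher in Selenbp1-KO kidneys was 81.1%, and 95.4% with normexp, 93.6% with median scaling, 53.8% with quantile normalization, 55.1% with the authors' table, and 37.3% with the slide row as a block. The median of all genes was 0.00 with quantile normalization.

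Of the 100 other connective tissue genes, 22 passed, 44 with normexp, 41 with trend and robust options, 20 with the slide row as a block (12 of them among the 22), and, leaving out 1 array, 14 (Selenbp1-KO replicate 2) to 30 (WT replicate 4). The replicate numbers were not taken to pair the mice, since only replicates 2 and 3 occur in both genotypes, and their deviations correlated at 0.17 and 0.19 (n = 2 pairs). With the replicate number as a block, 18430 probes and 20 of the 100 genes passed (10 of them among the 22), and the median difference of the members was 0.96. Signal over background limits Myoc and Clec3b in WT kidneys, and the cause of these shifts was not tested.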
